A study of Mus musculus with 16 samples.

Results

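Broad H3K27me3 domains were the 1469 widest of 98342 H3K27me3 regions listed for a mouse fibroblast chromatin experiment. They were chosen by width alone, as regions spanning 5000 bp or more on the mm10 genome, and the values that chose them are the widths given here as a description. The other regions were narrower and serve as the background: 19766 middle regions of 1100 to 4900 bp and 77107 narrow regions of up to 1000 bp.

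Immortalized mouse embryonic fibroblasts were studied by chromatin immunoprecipitation and sequencing (ChIP-seq), in which antibody-bound chromatin fragments are sequenced to locate a mark. An Sdhc fl/fl line (R26M2rtTA/+;TetOcre;Sdhcfl/fl) was set against an Sdhc fl/wt line (R26M2rtTA/+;TetOcre;Sdhcfl/wt), both taken on day 16 after doxycycline at 1 µg/mL switched on the Cre recombinase. Sdhc encodes a membrane subunit of succinate dehydrogenase, so Cre is meant to remove both copies of the gene in the fl/fl line and a single copy in the fl/wt line, which also carries Cre and received the drug. Each line gave 2 samples for each of 3 antibodies (against succinyllysine, H3K4me3 and H3K27me3) and 2 input samples, 16 samples in all. The labels describe a line per genotype and do not say whether its 2 samples came from separate cultures. For each antibody a single list of regions stands for its 4 ChIP samples, with positions and no height, score or value per sample. The domains could therefore not be compared between the fl/fl and the fl/wt line, no p-value is given, and the read depth is unknown.

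H3K27me3 is histone H3 trimethylated at lysine 27, the product of Polycomb repressive complex PRC2. It marks genes held silent, and it can spread from CpG-rich gene starts over long stretches of chromatin. In differentiated cells its wide domains are known for covering regulators of other lineages, such as homeobox genes. H3K4me3 marks the starts of active genes, and its presence together with H3K27me3 is known as bivalent chromatin. Succinyllysine is a lysine carrying a succinyl group, which is derived from succinyl-CoA.

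Promoter windows of 8 genes show the sequence that lies under the domains. Each window runs from 250 bases before to 50 after an annotated start, is taken from RefSeq (GRCm38.p6), reads 5′ to 3′ along the gene's strand, and has its CG dinucleotides in capitals. The first 4 are from the widest domains whose gene start had no H3K4me3 region. They are Nkx2-3, a homeobox factor (chr19:43612075-43612374, + strand), Sox1, a neural progenitor factor (chr8:12395269-12395568, + strand), Pax7, a muscle stem cell and neural factor (chr4:139832919-139833218, - strand), and Ihh, the Indian hedgehog ligand (chr1:74951623-74951922, - strand).
Nkx2-3: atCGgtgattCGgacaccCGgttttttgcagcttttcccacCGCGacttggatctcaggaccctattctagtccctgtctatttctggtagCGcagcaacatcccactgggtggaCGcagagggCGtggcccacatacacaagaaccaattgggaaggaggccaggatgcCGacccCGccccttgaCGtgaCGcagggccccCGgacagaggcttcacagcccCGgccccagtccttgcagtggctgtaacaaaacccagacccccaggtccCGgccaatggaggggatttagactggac
Sox1: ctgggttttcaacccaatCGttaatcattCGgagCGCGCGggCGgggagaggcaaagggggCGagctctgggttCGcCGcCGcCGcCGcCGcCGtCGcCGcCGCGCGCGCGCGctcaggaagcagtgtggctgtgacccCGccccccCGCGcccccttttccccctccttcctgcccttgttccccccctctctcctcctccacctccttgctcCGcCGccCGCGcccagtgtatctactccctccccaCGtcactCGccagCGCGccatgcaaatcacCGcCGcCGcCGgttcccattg
Pax7: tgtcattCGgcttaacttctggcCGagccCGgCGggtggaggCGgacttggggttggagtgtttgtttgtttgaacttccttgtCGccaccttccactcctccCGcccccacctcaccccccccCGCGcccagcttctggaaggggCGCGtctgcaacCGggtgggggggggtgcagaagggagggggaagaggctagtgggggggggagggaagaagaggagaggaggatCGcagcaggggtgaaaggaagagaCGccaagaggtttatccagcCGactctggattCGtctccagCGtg
Ihh: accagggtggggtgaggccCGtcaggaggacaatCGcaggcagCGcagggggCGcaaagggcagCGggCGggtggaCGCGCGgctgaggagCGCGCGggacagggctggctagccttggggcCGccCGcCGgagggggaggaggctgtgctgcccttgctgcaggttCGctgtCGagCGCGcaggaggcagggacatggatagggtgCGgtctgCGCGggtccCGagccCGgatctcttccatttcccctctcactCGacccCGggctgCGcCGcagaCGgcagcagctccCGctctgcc

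The other 4 windows lay inside both a domain and an H3K4me3 region. They belong to the homeobox genes Hoxb4 (chr11:96318017-96318316, + strand), Hoxc4 (chr15:103034145-103034444, + strand), Lhx1, a kidney and head organizer factor (chr11:84525485-84525784, - strand), and Hmx2, an inner ear factor (chr7:131554043-131554342, + strand).
Hoxb4: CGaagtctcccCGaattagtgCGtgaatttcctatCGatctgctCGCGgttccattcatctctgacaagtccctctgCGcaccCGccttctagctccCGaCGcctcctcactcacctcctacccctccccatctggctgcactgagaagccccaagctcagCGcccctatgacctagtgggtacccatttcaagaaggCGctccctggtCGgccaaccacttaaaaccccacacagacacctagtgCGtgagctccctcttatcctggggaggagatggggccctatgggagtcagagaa
Hoxc4: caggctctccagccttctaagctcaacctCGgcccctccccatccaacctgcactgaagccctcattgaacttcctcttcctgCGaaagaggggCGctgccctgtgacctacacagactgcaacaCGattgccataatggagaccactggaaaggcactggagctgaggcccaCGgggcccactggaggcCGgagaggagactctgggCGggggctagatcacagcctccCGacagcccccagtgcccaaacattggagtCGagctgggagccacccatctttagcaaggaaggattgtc
Lhx1: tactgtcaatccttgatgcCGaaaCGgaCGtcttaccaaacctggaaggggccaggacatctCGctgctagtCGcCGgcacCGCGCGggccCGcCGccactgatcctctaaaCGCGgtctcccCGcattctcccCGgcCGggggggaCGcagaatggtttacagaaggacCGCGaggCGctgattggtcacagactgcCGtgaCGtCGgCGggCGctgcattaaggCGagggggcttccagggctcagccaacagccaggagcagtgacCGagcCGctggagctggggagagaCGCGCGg
Hmx2: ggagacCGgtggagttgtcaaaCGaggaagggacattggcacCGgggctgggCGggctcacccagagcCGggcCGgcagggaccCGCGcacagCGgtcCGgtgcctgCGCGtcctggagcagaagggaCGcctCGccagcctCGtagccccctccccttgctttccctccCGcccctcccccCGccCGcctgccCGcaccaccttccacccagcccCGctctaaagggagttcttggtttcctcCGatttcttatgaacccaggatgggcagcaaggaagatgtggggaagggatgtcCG

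CG dinucleotides were present in all 8 windows but varied widely in number. The Sox1 window held 37, at 1.07 times the count its C and G content gives (observed over expected CpG). The Ihh window held 30 at 0.774 and the Pax7 window 17 at 0.581. The Nkx2-3 window, under a domain of 46000 bp, held 15 at 0.559. Among the windows shared with H3K4me3, Lhx1 held 31 at 0.961, Hmx2 22 at 0.643, Hoxb4 14 at 0.593 and Hoxc4 9 at 0.333. The windows with and without H3K4me3 thus overlapped in CpG content.

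MicroRNA genes were the other sequences read from the domains: 18 of 1228 microRNA genes (1.47%) lay in 15 domains, 7 of which touched no protein-coding gene. For protein-coding genes the touched share was 2.81%, so the microRNA share was not higher. All 18 are named below, and microRNA genes outside the domains are not. MicroRNAs repress messenger RNAs that pair with their seed, bases 2 to 8, given in capitals in the mature sequences (RefSeq, GRCm38.p6). The sequences shown are 5p products of the miR-10, miR-196 and miR-9 families, each of which had genes in 2 domains.
mmu-miR-10a-5p: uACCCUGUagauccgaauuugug
mmu-miR-10b-5p: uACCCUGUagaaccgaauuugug
mmu-miR-196a-5p: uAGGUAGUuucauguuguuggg
mmu-miR-9-5p: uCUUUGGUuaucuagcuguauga

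Mir10a (chr11:96317165-96317274, + strand) lay in the 54000 bp domain of Hoxb8 to Hoxb3, and Mir10b (chr2:74726070-74726137, + strand) in a 9100 bp domain at Hoxd3 and Hoxd4. Their 5p products share the seed ACCCUGU. Mir196a-2 (chr15:102973350-102973434, + strand) lay in the 98000 bp domain over HoxC and Mir196a-1 (chr11:96265164-96265265, + strand) in the 33700 bp domain at Hoxb9, and both give miR-196a-5p. Mir9-3 (chr7:79505264-79505353, + strand) and Mir9-1 (chr3:88215598-88215686, + strand), hairpins of the neural microRNA miR-9, lay in domains of 29400 and 5700 bp that touched no protein-coding gene. Mir375, a microRNA of endocrine pancreas, lay in a 12800 bp domain beside Cryba2 and Cfap65, and Mir7k in a 21100 bp domain at Pdx1, the pancreatic homeobox gene. Mir6405 lay in the 68100 bp domain of Pax2 and Mir615 in the 39100 bp domain of Hoxc5 and Hoxc4. Mir124a-1, a neuronal microRNA gene, lay with Mir3078 in a domain of 7100 bp, and Mir1a-1, a muscle microRNA gene, in a domain of 5600 bp. The domains of Mir7230, Mir7216 and Mir3085 were 5000 to 7400 bp wide, and Gm25641 and Gm51285 lie opposite Mir9-1 and Mir9-3. The miR-9-3p product and the miR-9b products of these opposite genes also occurred in both miR-9 domains, so 6 seeds in all were found in 2 domains each.

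The 1469 domains made up 1.49% of the H3K27me3 regions but 13.0 Mb, or 14.7%, of the H3K27me3 sequence. They covered 0.482% of the chromosomes' length. The median width was 7000 bp, the middle 50% ran between 5700 and 9800 bp, and the widest domain reached 98000 bp. Of the domains, 351 were 10000 bp or wider and held 42.9% of the domain sequence, 58 were 20000 bp or wider, 15 were 30000 bp or wider and 4 were 50000 bp or wider.

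Domain ends were often set by a neighbouring region with no gap. Of the domains, 812 (55.3%) directly adjoined another listed H3K27me3 region, 159 of them at both ends. Counted by end, 971 of 2938 domain ends (33.0%) adjoined another region, and 13.0% of all gaps between regions in the list were 0 bp. The widths are therefore those of listed pieces, and a stretch of H3K27me3 could be longer than the domain that represents it. At the threshold, 48 regions were exactly 5000 bp wide and 66 were 4900 bp wide. A protein-coding gene was touched, sharing at least 1 bp, by 58.3% of the regions of 5000 bp and 45.5% of those of 4900 bp. H3K4me3 was touched by 10.4% and 6.06% of them, and succinyllysine by none. The 5 regions just inside by genome order lay at Prdm14, Sox13, Ak8, Cfap77 and a place with no protein-coding gene. Regions just outside included those at Cfc1 and Prss40, at Spata3 and at Asb18.

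The widest domains lay over developmental regulators. The 98000 bp domain (chr15:102901201-102999200) ran from Hoxc13 to Hoxc6, homeobox genes that set position along the body axis, and included the noncoding gene Hotair. A domain of 68100 bp (chr19:44768901-44837000) lay over Pax2, a kidney and eye factor, and one of 56300 bp (chr11:96162001-96218300) over Ttll6 and Hoxb13. Hoxb8 to Hoxb3 lay under 54000 bp (chr11:96279101-96333100), Nkx2-3 under 46000 bp, Hoxc5 and Hoxc4 under 39100 bp and Sox1 under 39000 bp. Lbx1, a muscle precursor and spinal cord factor, lay under 38000 bp.

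Below these came domains over Pax7 (35200 bp), Cfap65 and Ihh (35100 bp), Ikzf3, a lymphoid zinc finger factor (34200 bp), Hoxb9 (33700 bp), Onecut1, a liver and neural factor (31500 bp), Hoxd3 and Hoxd1 (29500 bp) and Skap1, a T cell adaptor gene (28900 bp). Of the 20 widest domains, 5 touched no protein-coding gene. A domain of 37900 bp lay between Calcoco1 at 40023 bp and Hoxc13 at 121031 bp, and one of 31000 bp lay 54901 bp from Pax2. The host gene of Mir9-3 lay under 29400 bp, the noncoding gene Fendrr under 29200 bp that ended 1586 bp from Foxf1, and a stretch 37053 bp beyond Mtx2 under 28800 bp.

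Across the genome, 615 of 21887 protein-coding genes (2.81%) were touched by a domain. Among 25 gene lists with 569 distinct members, 131 were touched, and 5 lists of homeobox and Pax factors stood highest. The lists were put together with earlier results of these data known, so their counts are a description, read against the 2.81% of all genes. Intervals are exact Clopper-Pearson 95% intervals and cover counting error only.

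Homeobox genes led. Of 39 Hox genes, 22 were touched (56.4%, interval 39.6 to 72.2%) and 19 were covered whole. All 10 HoxB genes and all 9 HoxC genes were touched, 3 of 9 HoxD genes were (Hoxd1, Hoxd3 and Hoxd4), and none of the 11 HoxA genes was. Pax genes, paired-box factors, were touched in 6 of 9 cases (66.7%, 29.9 to 92.5%), namely Pax2, Pax7, Pax6 (26900 bp), Pax5 (21800 bp), Pax3 (5400 bp) and Pax4 (5000 bp), and not at Pax1, Pax8 and Pax9. Nkx homeobox genes were touched in 9 of 14 cases (64.3%, 35.1 to 87.2%), with Nkx2-5, the cardiac factor, under 17100 bp and Nkx2-1, the thyroid and lung factor, under 9200 bp.

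POU and other neural homeobox genes were touched in 16 of 25 cases (64.0%, 42.5 to 82.0%). Otx2, a forebrain factor, lay whole under 27900 bp, Pou4f3, a hair cell factor, under 23600 bp, Gsx2 under 17500 bp and Emx1 under 15200 bp. LIM homeobox genes were touched in 7 of 12 cases (58.3%, 27.7 to 84.8%), among them Lhx1 (26000 bp), Lhx3 (21700 bp), a pituitary and motor neuron factor, and Lhx4 (14600 bp). The untouched LIM genes were Isl2, Lhx2, Lhx6, Lhx8 and Lhx9. Of 21 Dlx, Msx, Irx and related homeobox genes, 4 were touched (interval 5.45 to 41.9%): Six3 under 17000 bp, Six6 under 12700 bp, Irx4 under 9600 bp and Irx6 under 6700 bp.

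Other lineage factors followed. Basic helix-loop-helix (bHLH) factors of muscle, neurons and other tissues were touched in 12 of 30 cases (40.0%, 22.7 to 59.4%). The widest were at oligodendrocyte and neuronal factors, Olig3 (25700 bp), Olig2 (21600 bp), Neurog1 (20800 bp), Olig1 (16000 bp) and Neurod2 (14700 bp), and at Tcf21, a mesenchymal factor (11900 bp). Forkhead genes were touched in 8 of 25 cases (32.0%, 14.9 to 53.5%), led by Foxb1 (24300 bp), Foxi3 (15100 bp) and Foxa2, an endoderm factor (13900 bp). Sox genes were touched in 4 of 19 cases (21.1%, 6.05 to 45.6%), Sox1, Sox14 (22400 bp), Sox21 (10500 bp) and Sox13. Gata genes were touched in 2 of 6 cases, Gata4 (17500 bp) and Gata5 (9500 bp), and T-box genes in 2 of 16, the heart factors Tbx20 (15400 bp) and Tbx5 (7200 bp). The T-box list did not hold the mesoderm factor T (Brachyury), named here after its values were seen, whose start lay in a domain of 10800 bp.

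Signalling ligands fell within the range of the factor lists. Wnt ligands were touched in 5 of 19 cases (26.3%, 9.15 to 51.2%), with Wnt3a under 16300 bp and Wnt9b under 8700 bp. BMP, FGF and Hedgehog ligands and antagonists were touched in 6 of 31 cases (19.4%, 7.45 to 37.5%), Ihh (35100 bp), Fgf3 (11000 bp), Fgf9 (8700 bp), Fgf20 (7100 bp), Fgf4 (6400 bp) and Shh (6200 bp).

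Neuronal receptor, channel and transporter genes were touched in 15 of 35 cases (42.9%, 26.3 to 60.6%). Of the 35, 2 were touched by a domain of 10000 bp or more and 6 had a start inside a domain. The widest of these domains lay at the vesicular GABA transporter Slc32a1 (18100 bp), at Gad1, an enzyme of GABA synthesis (15500 bp), and at the potassium channel Kcna1 (8500 bp). Chat and Slc18a3, the choline acetyltransferase and vesicular acetylcholine transporter genes of a shared locus, lay under 8100 bp. Lists of genes of other tissues hold regulators as well as terminal genes. Haematopoietic and endothelial genes were touched in 3 of 24 cases, Ikzf3, the transcriptional regulator Lmo2 (17500 bp) and the T cell receptor subunit Cd3e (11900 bp). Epithelial genes were touched in 3 of 24 cases, the splicing factor Esrp1 (24300 bp), and the transcription factors Grhl2 (5800 bp) and Ovol2 (5200 bp). Hepatocyte genes were touched in 1 of 19 cases, the fibrinogen gene Fgg (6400 bp). Skeletal and cardiac muscle genes were touched in 0 of 22 cases (0 to 15.4%), although 10 of them touched an H3K27me3 region of some width. Over all 21887 protein-coding genes, domains touched 615, middle regions 2050 and narrow regions 3597, and a gene can be counted in several classes.

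Lists of fibroblast genes and of basic cell functions held no touched gene, and the intervals of their shares include the 2.81% of all genes. No domain touched the 30 fibroblast and extracellular matrix genes (0 to 11.6%), the 48 cytosolic ribosomal protein genes (0 to 7.40%) or the 28 genes of the tricarboxylic acid cycle and succinate dehydrogenase (0 to 12.3%). Sdha, Sdhb, Sdhc and Sdhd touched 0 H3K27me3 regions of any width. Most genes likewise touched none: of 21887 protein-coding genes, domains touched 615, middle regions 2050 and narrow regions 3597. Of 28 Polycomb subunit genes, only Epop was touched, by a domain of 5100 bp, and of 12 cell cycle inhibitor and p53 genes only Trp73 was (7200 bp). Pluripotency genes were touched in 5 of 17 cases, Esrrb (13900 bp), Sall4 (7300 bp), Lin28a (7100 bp), Fgf4 and Prdm14. Of the 20 genes listed as imprinted growth genes 1 was touched, Ascl2 (6500 bp).

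**Figure D1:**
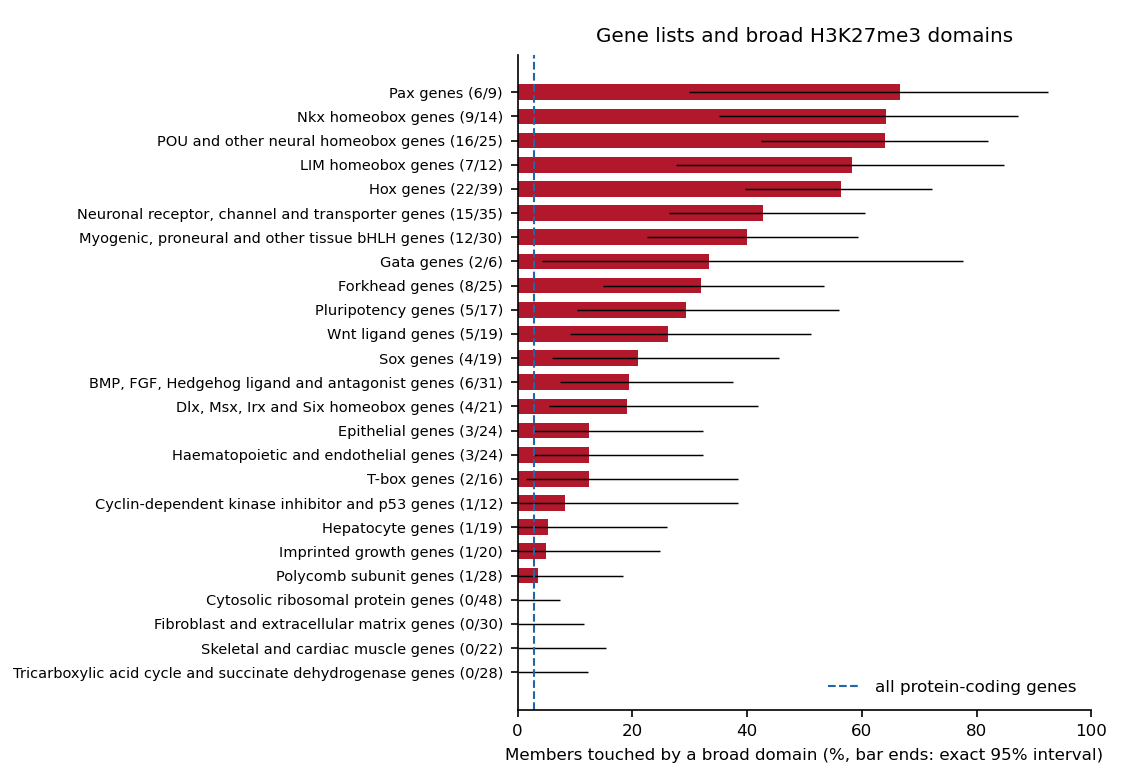
Share of each gene list's members touched by a broad H3K27me3 domain (percent, horizontal axis), with counts in brackets, exact 95% intervals as black lines and the 2.81% of all protein-coding genes as a dashed line. Pax, Nkx, POU, LIM and Hox genes stand above 50%, and 4 lists stand at 0.

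The labelled cell type was checked on marker genes. Of 10 fibroblast markers, 9 touched an H3K4me3 region, all but Thy1, and none touched an H3K27me3 region. Of 8 epithelial markers 2 touched H3K4me3, of 6 neuronal markers 2 did, of 4 haematopoietic markers 1 did, of 4 endothelial markers 1 did, and of the 4 muscle, 4 hepatocyte and 4 pluripotent markers none did. Domains lay on 2 epithelial, 3 neuronal and 1 haematopoietic marker. As a background, H3K4me3 lay over 53.1% of all annotated starts, a share of starts and not of genes. Among all 21887 protein-coding genes, narrow regions touched 3597, middle regions 2050 and domains 615, so most touched no H3K27me3 region.

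The extent of a gene under domains varied greatly. Of the 615 touched genes, 80 were covered whole, 218 at 50% of their length or more and 152 at less than 10%, with a median of 28.7%. Touched genes were longer than genes in general, at a median of 23490 bp against 17169 bp for all protein-coding genes, and longer genes give more room for contact. Some genes held many domains: 63 were touched by 3 or more and 18 by 5 or more, the most being 12 over Skap1, next to the HoxB cluster. By domain, 58.5% touched a protein-coding gene (55.9 to 61.0%), against 44.1% of middle and 37.5% of narrow regions. Judged by the midpoint of the region, which does not grow with width, the shares were 42.5% for the domains, 41.6% for middle and 37.1% for narrow regions. Most of the difference between domains and middle regions by contact was thus not seen by midpoint.

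Gene starts were more frequent per length in the domains. Annotated starts were available for 17492 of the 21887 genes. A start lay in a domain for 233 genes, or 17.9 genes per Mb, against 10.2 per Mb in middle and 6.48 per Mb in narrow regions. The promoter windows wholly inside a domain (230 windows) had a median observed over expected CpG of 0.545, against 0.358 in middle regions, 0.284 in narrow regions and 0.567 over all windows. CpG-rich windows, with a ratio over 0.6 and a GC content over 50%, made up 39.1% of those in domains, 21.1% in middle and 13.4% in narrow regions, and 44.9% of all windows. Promoters under domains were thus close to all promoters in CpG content, while those under narrower regions lay lower. These differences were not tested.

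H3K4me3 was rare at gene starts under the domains. It lay over 26 of 256 such starts (10.2%, 6.74 to 14.5%), against 53.1% of all 21263 annotated starts. Under narrower H3K27me3 regions the shares were of the same size, 7.97% of starts in middle and 9.38% in narrow regions. Among CpG-rich windows, 15 of 112 starts in domains had H3K4me3 (13.4%, 7.69 to 21.1%), against 88.8% of all 9548. Among other windows the counts were 11 of 144 in domains (7.64%, 3.87 to 13.3%) and 24.0% of all 11715. Succinyllysine lay over 0 of the 256 starts in domains, against 1.46% of all starts. It was as rare under narrower H3K27me3 regions, over 0 of 414 starts in middle and 2 of 256 in narrow regions.

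**Figure D2:**
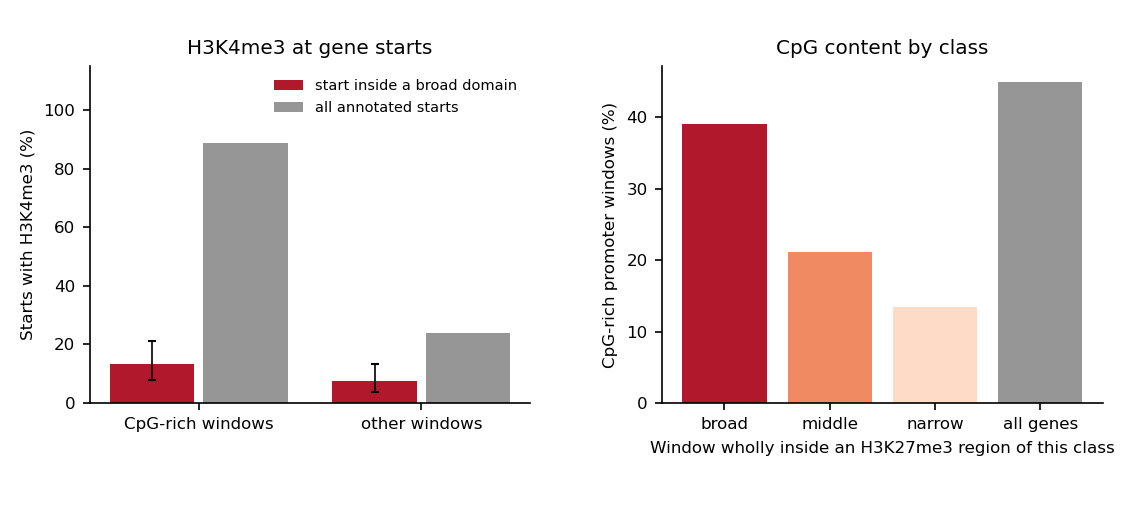
Left, share of annotated starts with an H3K4me3 region (percent) for starts inside a broad domain and for all starts, by CpG content of the promoter window, with exact 95% intervals for the domains. Right, share of CpG-rich windows (percent) among those wholly inside broad domains, middle or narrow H3K27me3 regions, and among all genes. CpG-rich starts carry H3K4me3 in 13.4% of cases in domains and 88.8% overall.

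H3K4me3 at a start was also counted over the members of the 25 lists. Of 86 touched members with an annotated start, 18 had H3K4me3 at a start, in the domain or outside it (20.9%, 12.9 to 31.0%). Of 326 untouched members, 202 did (62.0%, 56.5 to 67.3%). In the Hox list the counts were 4 of 7 touched and 14 of 15 untouched genes, and the 9 HoxA genes with an annotated start all had it. Only 7 of the 22 touched Hox genes had an annotated start, against 15 of the 17 untouched ones. Most touched Hox genes were thus not scored, and the 2 shares cannot be set against each other for the whole list. In the list of POU and other neural homeobox genes they were 0 of 12 touched and 4 of 7 untouched genes. In the neuronal list they were 0 of 12 and 4 of 12, and in the bHLH list 0 of 10 and 5 of 13. LIM genes had H3K4me3 at a start in 4 of 6 touched and 4 of 5 untouched cases. In Pax genes the counts were 2 of 4 touched and 0 of 3 untouched, and in epithelial genes 1 of 1 and 2 of 16. Without the Polycomb, fibroblast, ribosomal, tricarboxylic acid cycle and cell cycle inhibitor lists, 18 of 85 touched members (21.2%) and 89 of 212 untouched members (42.0%) had H3K4me3 at a start. These counts were not tested.

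H3K4me3 inside the domains was found in a small set of them. Of the 1469 domains, 139 touched an H3K4me3 region (9.46%, 8.01 to 11.1%), against 2.17% of middle and 0.857% of narrow regions, and wide regions have more room for contact. By length the difference was smaller: H3K4me3 covered 1.21% of the domains' sequence, 0.997% of the middle regions' and 0.513% of the narrow regions', against 1.86% of the chromosomes. At region midpoints the shares were 0.749%, 0.648% and 0.639%. The list is that of 4 samples of many cells each, so the same bases in both lists do not show that the marks sit on the same nucleosome, in the same cell or in the same line.

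The 150 H3K4me3 regions involved were of ordinary width, at a median of 1200 bp against 1100 bp in their whole list. Of these, 78 lay wholly inside a domain and 72 crossed its edge, and 52.7% lay within 1000 bp of an annotated start, against 41.6% of all H3K4me3 regions. A single region was found in 120 domains, 2 in 14, 3 in 4 and 4 in 1 domain. In 89 of the 139 domains less than 10% of the length was shared, and in 5 it was 50% or more. Domains with an annotated start touched H3K4me3 in 41 of 227 cases (18.1%) and those without in 98 of 1242 (7.89%), at median widths of 9200 and 6800 bp. Domains of 10000 bp or more touched it in 46 of 351 cases (13.1%) and shorter ones in 93 of 1118 (8.32%).

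Hox domains stood out by amount. The 12 domains that touched a Hox gene held 33.2 kb of the 157.5 kb shared with H3K4me3 (21.1%), in 5 of the 12. H3K4me3 covered 8.47% of their sequence, against 0.984% in the other 1457 domains. The domain of Hoxb8 to Hoxb3 held 4 regions and 9100 bp of H3K4me3 (16.9% of its length), and the starts of Hoxb8 and Hoxb4 had H3K4me3. Annotated starts were available for only 3 of 10 HoxB and 1 of 9 HoxC genes, so the other starts were not scored. H3K4me3 regions inside broad domains also overlapped further Hox genes, among them Hoxb6, Hoxb9, Hoxc5, Hoxc6 and Hoxc8. The Hoxb9 domain held 3 regions and 4900 bp. In HoxC, the 98000 bp domain held 3 regions and 5500 bp (5.61%), the domain of Hoxc5 and Hoxc4 held 2 regions and 4900 bp, and a 14400 bp domain at Hoxc6 (chr15:102999401-103013800) held 3 regions and 8800 bp, or 61.1% of its length. By contrast, the 56300 bp domain of Hoxb13 and the 29500 bp domain of Hoxd3 and Hoxd1 held none.

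Outside the Hox clusters, the domains sharing the most H3K4me3 were 2 that also held succinyllysine, with 5600 bp beyond Chil4 on chromosome 3 and 5500 bp between Zfp978 and Zfp982. A domain between Prl2c3 and Prl2c2 shared 4200 bp, and a 7500 bp domain with 2 transfer RNA genes and no protein-coding gene shared 4100 bp. Others lay at developmental genes. The 10300 bp domain at Lmx1b, a limb and midbrain factor, shared 4600 bp, and the 8700 bp domain at the growth factor gene Fgf9 shared 3600 bp. The 26000 bp Lhx1 domain shared 3300 bp, the 11700 bp domain at En2, a cerebellar factor, 1700 bp, and the 10700 bp domain of Hmx3 and Hmx2 1300 bp in 3 regions. At Hrk, a cell death gene, 2600 of 7200 bp were shared. In all, 24 of the 233 genes with an annotated start inside a domain had H3K4me3 at such a start. Among them were Pax2, in an adjoining domain of 26100 bp, Pax6, Six3, Lhx4, Foxa2 and Esrrb. Of the 615 touched genes, 160 had no annotated start and were not scored. The domains of Nkx2-3, Sox1, Pax7, Ihh, Ikzf3 and Onecut1 held no H3K4me3.

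H3K4me3 was most frequent just outside the domains. Within 1000 bp outside an edge it lay beside 168 domains (11.4%, 9.85 to 13.2%), on both sides in 8 cases. It covered 4.32% of this flanking sequence, against 1.36% beside middle and 0.418% beside narrow regions. Measured in steps of 100 bp from the edge, negative distances lying outside, 1.74% of positions were in H3K4me3 at -9.95 kb, 4.66% at -0.45 kb, 3.23% at 0.05 kb, 1.26% at 1.05 kb and 0.647% at 2.05 kb. The level thus peaked within 1 kb outside and declined over the outer 2 kb of the domain. Other listed H3K27me3 regions covered 33.0% of the positions at -0.05 kb and 79.2% at -0.95 kb, so H3K27me3 commonly resumed past the edge.

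**Figure D3:**
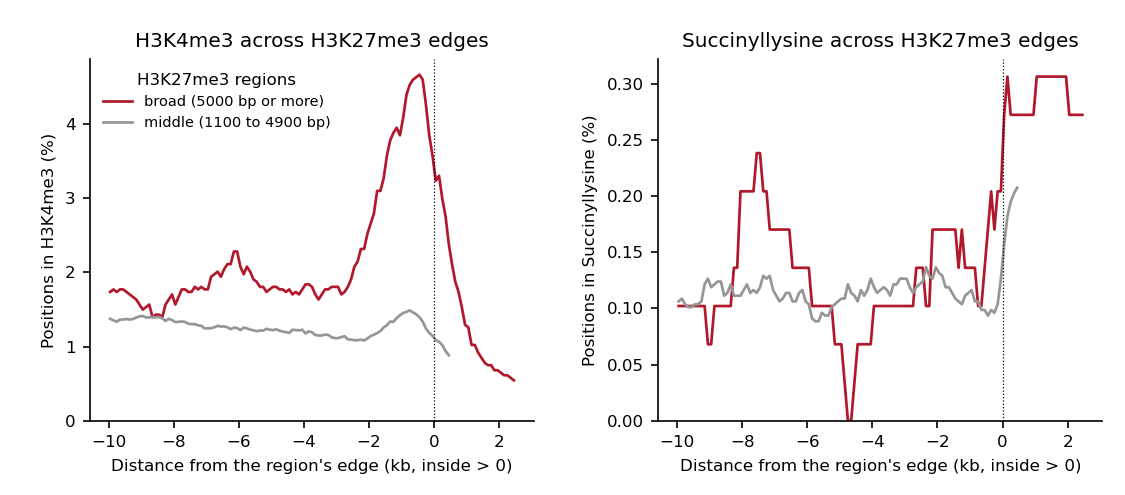
Share of positions (percent) in an H3K4me3 region (left) or a succinyllysine region (right) by distance from the edge of broad domains (red) and middle regions (grey), in kb, with positive distances inside. H3K4me3 peaks at 4.66% at -0.45 kb from the domains' edge, while succinyllysine stays below 0.4% throughout.

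Succinyllysine was found in 8 domains (0.545%, 0.235 to 1.07%), against 0.304% of middle and 0.777% of narrow regions. It covered 0.200% of the domains' sequence, 0.293% of the middle regions' and 0.368% of the narrow regions', and 0.277% of the chromosomes. The 8 domains shared 26100 bp with 10 succinyllysine regions, of which 4 lay wholly inside, at a median width of 3200 bp against 300 bp in the whole list. Most of them lay in few places.

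A group of 5 lay on chromosome 3 around Chia1, Chil3 and Chil4, neighbouring genes for a chitinase and chitinase-like proteins. At Chia1, 5300 of 8400 bp were in succinyllysine and none in H3K4me3. At Chil3 the domain of 6700 bp shared 200 bp with succinyllysine and 2400 bp with H3K4me3, and at Chil4 that of 6500 bp shared 3300 and 2200 bp. Beyond Chil4, a domain of 5700 bp (chr3:106234601-106240300) shared 5500 bp with succinyllysine and 5600 bp with H3K4me3, and one of 5200 bp shared 2500 and 2300 bp. The 3 marks thus overlapped along this locus.

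The other 3 lay apart. A domain of 5500 bp between the zinc finger genes Zfp978 and Zfp982 (chr4:147427301-147432800) lay wholly in both other lists. A domain of 6600 bp between Prl2c3 and Prl2c2, prolactin family genes (chr13:12884601-12891200), shared 2800 bp with succinyllysine and 4200 bp with H3K4me3. The 14400 bp domain at Hoxc6 shared 1000 bp with succinyllysine, within its H3K4me3. In 7 of the 8 domains H3K4me3 was present too, the exception being Chia1. Input signal at these places was not analysed here, and its part in the overlap was not tested.

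**Figure D4:**
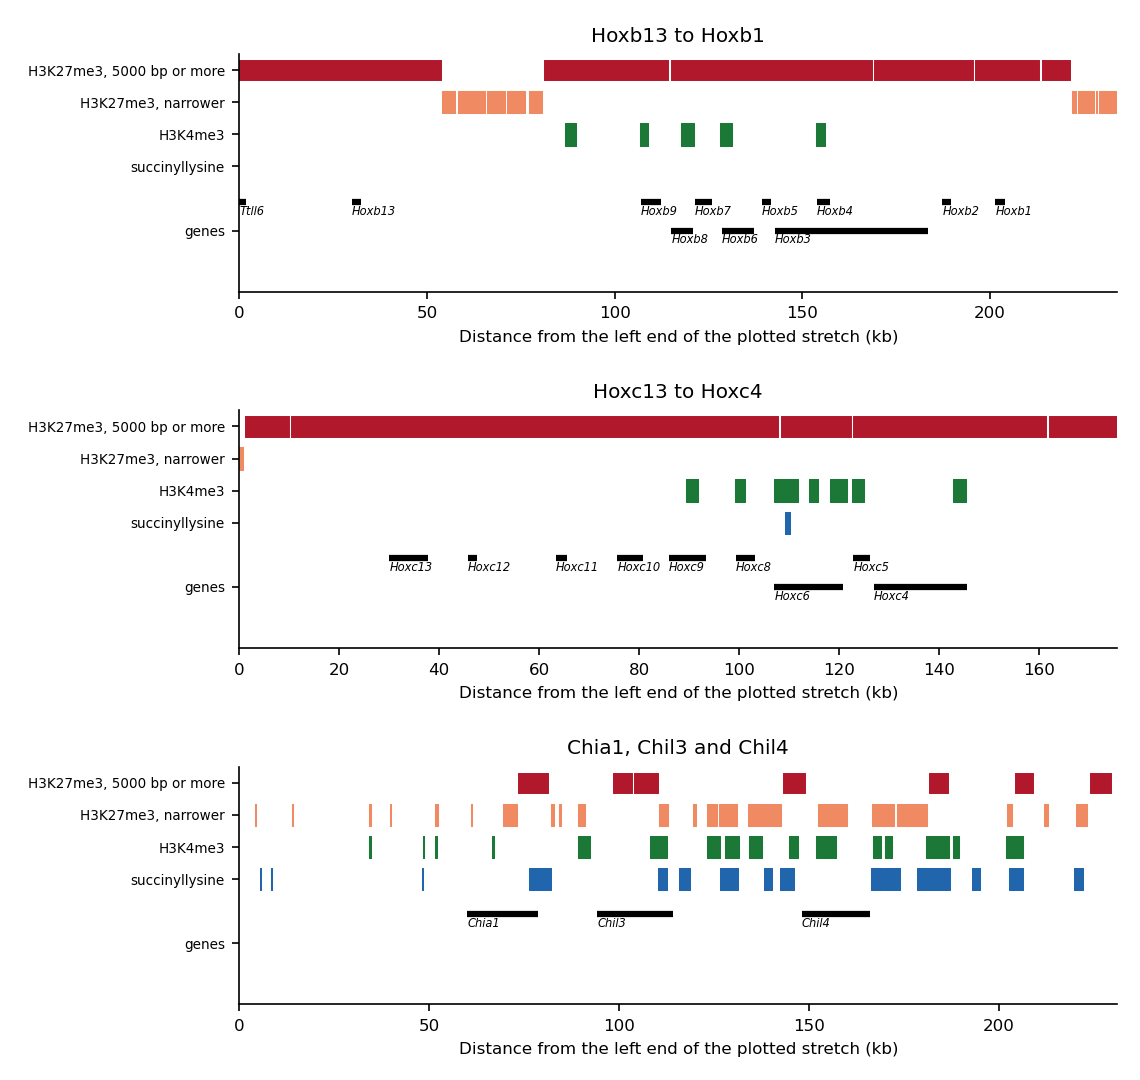
Listed regions along HoxB (top), HoxC (middle) and the chitinase-like locus (bottom), by distance in kb from the left end of each stretch: broad domains in red with white lines between adjoining ones, narrower H3K27me3 regions in orange, H3K4me3 in green, succinyllysine in blue and genes as black bars. H3K4me3 lies inside broad domains from Hoxb9 to Hoxb4 and from Hoxc9 to Hoxc4, and around the chitinase-like genes all 3 marks alternate and overlap.

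Domains were grouped by their distance along the chromosomes. Joined where gaps were at most 50000 bp, 1086 of the 1469 domains (73.9%) fell into 287 clusters, and 383 stood alone. There were 133 pairs, 101 clusters of 3 to 5 domains, 39 of 6 to 9 and 14 of 10 or more, which together held 185 domains. The median gap between neighbouring domains on a chromosome was 28800 bp, and of 1450 such gaps 98 were 0 bp, 287 at most 1000 bp and 558 at most 10000 bp. The gaps within clusters, 7.05 Mb in all, were mostly H3K27me3 as well: narrower H3K27me3 regions covered 66.5% of them. H3K4me3 covered 1.20% of the domains in clusters and 1.67% of the gaps, and succinyllysine 0.205% of the domains and 0.420% of the gaps. The 29600 bp of succinyllysine in gaps all lay in the cluster at Chia1, Chil3 and Chil4. Without this cluster succinyllysine covered 0.038% of the domains and 0% of the gaps, and H3K4me3 1.08% of the domains and 1.28% of the gaps. No test of clustering was made. The share in clusters was not worked out for narrower regions, so it does not show that domains lie closer together than other H3K27me3 regions.

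The HoxB cluster held 21 domains over 539 kb, with 408.3 kb (75.8%) under domains, and ran from Ttll6 through Hoxb1 into Skap1. Its 14000 bp of H3K4me3 all lay in the domains of Hoxb9 and of Hoxb8 to Hoxb3. The Foxb1 cluster held 20 domains over 408.5 kb, with 188.4 kb under domains, and Foxb1, a neural forkhead factor, was the only protein-coding gene in its span. The Pax2 cluster held 15 domains over 283.4 kb, of which 85.0% was under domains, with Pax2 as its only protein-coding gene.

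The HoxC cluster held 14 domains over 375.8 kb, of which 88.9% was under domains, with 20400 bp of H3K4me3. A cluster of 14 domains over 220.2 kb touched Cd40, an immune receptor gene, and Cdh22, a cadherin gene, and a cluster of 13 over 237.4 kb centred on Sox1. The clusters of Foxb1, Cd40 and Cdh22, and Sox1 held 0 bp of H3K4me3 in domains and gaps. Of the 287 clusters, 44 touched no protein-coding gene and 40 had none in their span.

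Domains without a protein-coding gene numbered 610 (41.5%). Of these, 206 touched a noncoding gene, 181 of them a long noncoding RNA and 7 a microRNA, and 404 touched no annotated gene. Their nearest protein-coding gene lay at a median of 16192 bp, with the middle 50% between 5337 and 38634 bp. It was within 10000 bp for 232 domains and over 100000 bp away for 33, at most 285946 bp. Besides the 5 named among the widest, such domains included one of 26600 bp 33331 bp from Hoxc13, one of 22800 bp 16142 bp from Clec4f, one of 21800 bp 15202 bp from Syn2, one of 20600 bp between Hif1an at 59827 bp and Pax2 at 89901 bp, and one of 19800 bp between Mrm1 at 97061 bp and Lhx1 at 170667 bp.

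Chromosomes differed in their number of domains. Over the 19 autosomes the median was 55.8 domains per 100 Mb, with 122.9 on chromosome 2 (220 domains), 111.6 on chromosome 19 and 98.8 on chromosome 9 at the upper end, and 23.5 on chromosome 16 and 27.5 on chromosome 7 at the lower. Chromosome 2 also had the most H3K27me3 regions in all, 56.6 per Mb against an autosomal median of 37.7, and 13.4 H3K4me3 regions per Mb against a median of 11.1. Chromosome 7 had 43.8 H3K27me3 regions per Mb, but only 0.628% of them were domains, against a median of 1.43%.

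The X chromosome had 0 domains among 3672 H3K27me3 regions, which were at most 4100 bp wide with a median of 300 bp, against an autosomal median of 600 bp. Its H3K4me3 regions numbered 3.90 per Mb. The Y chromosome had 2 H3K27me3 regions and no domain. On the X chromosome H3K27me3 regions numbered 21.5 per Mb, against 19.3 per Mb on chromosome 16, which held 23 domains.

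**Figure D5:**
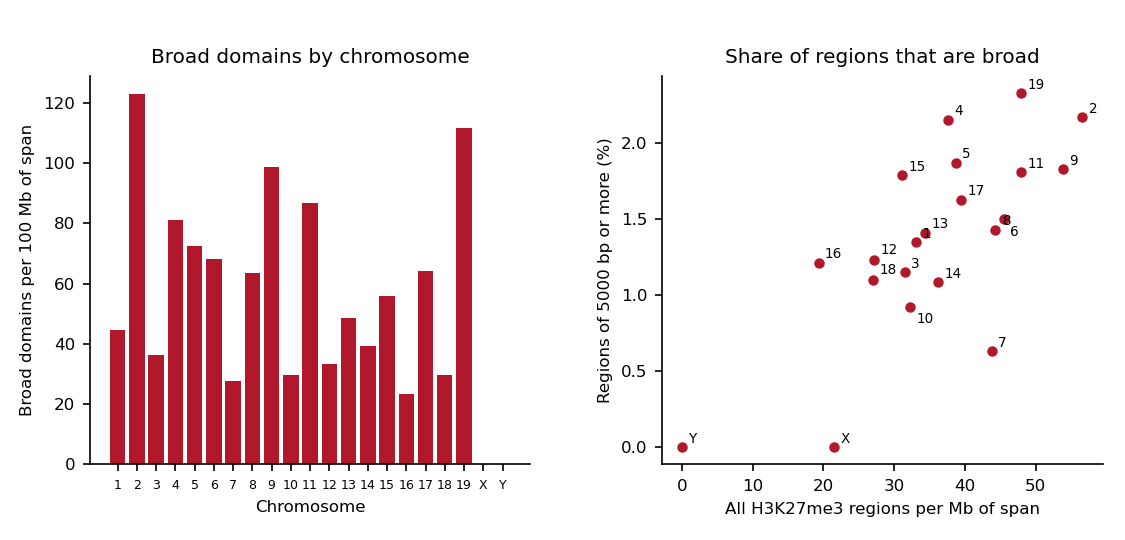
Left, broad domains per 100 Mb of each chromosome. Right, share of H3K27me3 regions that were 5000 bp or wider (percent) against H3K27me3 regions per Mb, a point per chromosome. Chromosome 2 has 122.9 domains per 100 Mb, chromosome 7 has 27.5 despite 43.8 regions per Mb, and X and Y have none.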

How the data were processed

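The deposited files were 3 lists of regions, for succinyllysine, H3K4me3 and H3K27me3, each for 4 ChIP samples. They hold positions only, as the authors deposited them, in another unit than a count or signal: chromosome, start and end, counted from 1 in steps of 100 bp. Reads were aligned with Bowtie2 2.2.3 to mm10, per the submitters' processing notes. Which caller and threshold gave the regions, and how input and the 4 samples entered, were not given in the sources used here. Each of these could move region edges and widths. Per the labels' protocols, chromatin was cut with MNase and by sonication.

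Width was end minus start plus 1. Regions were joined with RefSeq genes, promoter windows and microRNAs (GRCm38.p6, the build also called mm10) on chromosomes 1 to 19, X and Y. Contact meant sharing at least 1 bp. Because no list holds a value per sample, the fl/fl and fl/wt lines were not compared and no test was run. Intervals are exact Clopper-Pearson 95% intervals over regions or genes, which are not independent. The domains and the gene lists were chosen with earlier results of these data known. Genes were named where touched by the 20 widest domains, by the 6 clusters with the most domains, by the domains with the most H3K4me3 or with succinyllysine, or by domains at the threshold. Not every region at the threshold is named. Up to 6 touched members of each gene list were named as well. The microRNA genes, their neighbours Cryba2 and Pdx1, and T were named after their values were seen. Alternatives changed the width threshold, merged nearby regions, used autosomes alone, and changed the gap of a cluster and the rules of contact. Procedures were tested on simulated data. Python 3.11.15, pandas 2.3.3, numpy 2.4.6, scipy 1.17.1 and matplotlib 3.10.9 were used.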

Additional observations from a re-analysis of the deposited data

How the results depend on the processing

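With a minimum width of 4000 bp there were 2289 domains, and with 10000 bp 351. Merging regions within 1000 bp gave 4367 domains, and 56.99% of the H3K27me3 sequence lay in them, against 6.31% with 10000 bp and 22.6% with adjoining regions joined, when there were 2119 domains. Genes touched numbered 223 with 10000 bp and 1661 with merging, 218 when 50% or more of the gene had to be covered, 80 when the whole gene did and 233 when its start had to lie inside. Members of the gene lists touched numbered 70 with 10000 bp and 59 by their starts. The share of domains touching a gene was 67.0% with 10000 bp and 42.5% by midpoint.

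The share of domains in clusters was 79.6% with 4000 bp, 57.0% with 10000 bp, 80.4% with merging, 66.7% with gaps of at most 20000 bp, 78.3% with 100000 bp and 77.6% with adjoining regions joined. The share touching H3K4me3 was 13.1% with 10000 bp, 4.36% when the H3K4me3 region had to lie wholly inside, 5.85% by its midpoint and 5.65% with H3K4me3 regions wider than their median. Of the other values of these comparisons, 62 moved by less than counting error or 1.5 times. This count includes the use of autosomes alone, which kept all 1469 domains because X and Y held none, and so could move little. Leaving out domains at Hox genes or with succinyllysine also kept most, 1457 and 1461 domains. For single gene lists, 41 counts stayed within 1.5 times and 34 did not. Joining adjoining regions, and leaving out domains at Hox genes or with succinyllysine, were chosen after seeing the data, as were leaving out the chitinase-like cluster and 5 gene lists. Widths, and the number of domains with them, thus depend on how regions were split and on the threshold. No paired analysis was possible because the lists hold no value per sample. Leaving out a replicate was likewise not possible. Depth is unknown.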
